A study of Aspergillus niger with 27 samples.

Results

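The genes described here are those of Aspergillus niger that were higher over wheat bran and whose identifiers follow one another in unbroken runs. A gene met the wheat bran criterion when its mean scaled count over the 9 wheat bran libraries was at least 5 and at least 2 times its mean in each of the other substrates, glucose and sugar beet pulp (9 libraries each). Of 11846 gene models, 1360 met it (11.5%). Runs of at least 4 consecutive NRRL3 numbers were then taken among those 1360, which gave 16 runs with 91 genes. From 6 of these runs, 18 genes were left out because they were high in every wheat bran compartment (smallest compartment mean at least 50 and at least 4 times the largest mean off bran), and the remaining 73 genes are the members, 5.37% of the 1360. The differences between wheat bran and the other substrates chose the members, so they are given as a description without a test.

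In filamentous fungi, genes of a secondary metabolite pathway, and some of those that take up and break down a nutrient, often lie side by side on a chromosome and are switched on together, commonly by a regulator encoded among them. Neighbouring genes may also share a level of expression because they lie in the same stretch of chromatin. The deposited table gives numbered identifiers without gene names, functions, positions or strands, and 0 of the 11846 identifiers were found among the genes RefSeq lists for assembly ASM285v2. Consecutive numbers are therefore described as neighbouring identifiers, no function is given to any member, and no sequence is shown.

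RNA was sequenced from mycelium that had grown from the centre of a pie-plate, a dish divided into wedges of liquid medium beneath a membrane whose pores pass metabolites and proteins and hold back hyphae. Each of 3 plates, A, B and C, carried 1 colony, and the mycelium above each of its 9 compartments gave 1 library, 27 in all. Compartments 1, 2 and 3 held glucose, a simple sugar, compartments 4, 5 and 6 held sugar beet pulp, a residue rich in pectin, and compartments 7, 8 and 9 held wheat bran, a residue rich in arabinoxylan and starch. The labels give neither a strain nor the age of the colonies, nor the place of each compartment number on the plate, and every library comes from mycelium that was connected to the other compartments of its plate. A library is named below by plate and compartment, so A8 is compartment 8 of plate A.

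Libraries held 8006891 to 24501824 counts. The lowest totals were those of compartment 9, with 8006891 to 11847598 counts, and their size factors lay between 0.251 and 0.389, against 0.606 to 1.75 in the other 24 libraries. Scaled counts are the deposited counts divided by these median-of-ratios size factors. In mycelium from whole compartments, fewer cells that express a gene and less RNA per cell cannot be told apart. With 1 colony per plate and the plate as a block, the p-values below measure how consistently a difference repeated over 3 plates. They do not measure differences in level between plates. In the compartment tests, the estimate of that spread is shared by all 9 compartments.

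The 16 runs were made of 7 runs of 4 identifiers, 3 of 5, 3 of 7, 2 of 8 and 1 of 11. The other genes that met the criterion stood alone in 904 cases or lay in 133 pairs and 33 runs of 3. By first and last number, the runs were 37 to 41, 149 to 152, 1333 to 1340, 1683 to 1687, 3869 to 3872, 4335 to 4338, 5229 to 5232, 6006 to 6009, 6339 to 6342, 7442 to 7452, 8891 to 8897, 9567 to 9571, 9967 to 9973, 11025 to 11028, 11672 to 11678 and 11793 to 11800. Leaving out the uniformly high genes took 6 genes from the run 1333 to 1340, 3 each from 9567 to 9571 and 11793 to 11800, and 2 each from 6339 to 6342, 8891 to 8897 and 9967 to 9973. The number of members per run was therefore 2 in 3 runs, 4 in 6 runs, 5 in 5 runs, 7 in 1 run and 11 in 1 run.

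Members averaged from 8.07 to 42698 scaled counts over wheat bran, with 10 under 20 and 15 at 1000 or more. The ratio of wheat bran to glucose ranged from 2.03 to 144 with a median of 3.67, and that of wheat bran to sugar beet pulp from 2.02 to 139 with a median of 4.49. Among the 1287 other genes that met the criterion the medians were 3.00 and 3.87. Just inside the criterion stood NRRL3_4336, NRRL3_11799 and NRRL3_11673, whose smaller fold was 2.02, 2.03 and 2.04, and just outside, next to a run, NRRL3_7441, NRRL3_4334 and NRRL3_148 with 1.98, 1.92 and 1.83.

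The 32 identifiers next to a run missed the criterion by construction, since a run would otherwise have gone on. Of these, 30 had a wheat bran mean of 5 or more, with a median smaller fold of 0.953, and 7 of the 30 reached 1.5 (23.3%). Among all 9821 genes of that level that missed the criterion, the median was 0.849 and 11.1% reached 1.5. After the run 7442 to 7452, NRRL3_7453, named after its values were seen, averaged 107 scaled counts on wheat bran, 254 on glucose and 482 on sugar beet pulp, so it was lowest on bran.

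**Figure D1:**
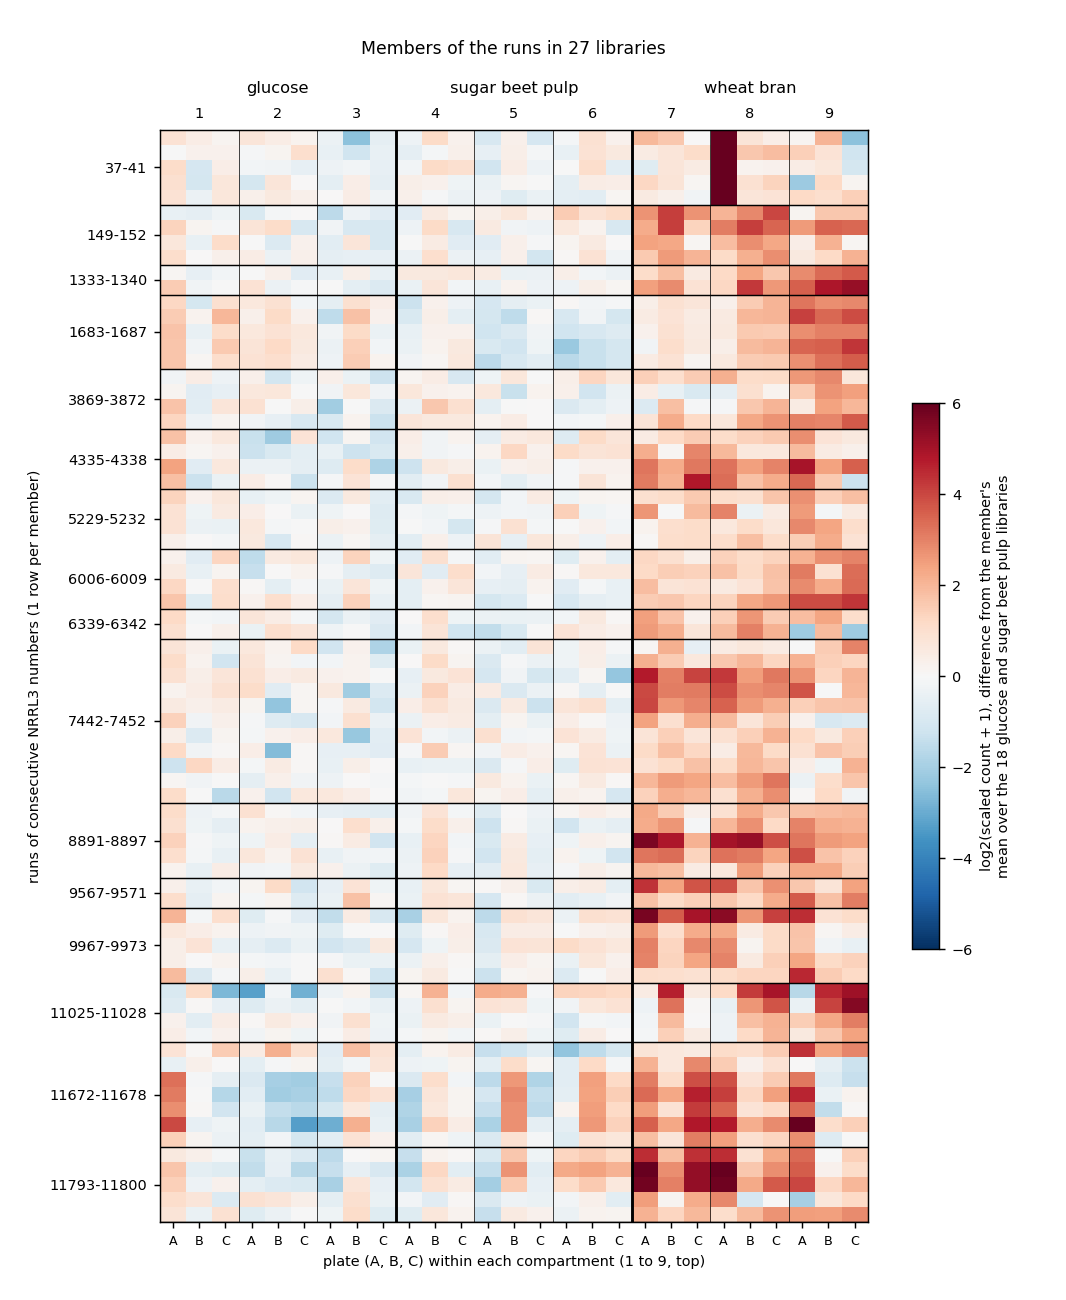
Each row is 1 of the 73 members, grouped by run, and each column 1 of the 27 libraries (plates A, B and C within compartments 1 to 9). Colour gives log2(scaled count + 1) minus the member's mean over the 18 glucose and sugar beet pulp libraries, and is capped at 6 in both directions. The run 37 to 41 is dark in a single column, A8, while other runs differ between plates or between compartments 7, 8 and 9.

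The rule averaged over 9 wheat bran libraries, so a member could qualify through few of them. The criterion was met by 59 members within plate A, by 46 within plate B and by 63 within plate C. On all 3 plates it was met by 31 of 73 members (42.5%), against 39.9% of the 1287 other genes that met the criterion overall. Taken compartment by compartment, it was met by 49 members in compartment 7, 57 in compartment 8 and 53 in compartment 9. The other genes leaned more to compartment 9, where 89.7% of them met it against 72.6% of the members, while in compartment 7 the shares were 41.6% and 67.1%. These shares describe the same values that chose the genes. In 4 members (NRRL3_150, NRRL3_7444, NRRL3_7446 and NRRL3_8893) every wheat bran library was above every other library, 5.48% of the members against 8.94% of the other genes.

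Differences among the 3 wheat bran compartments entered the choice of members through the exclusion of genes high in all of them. They also entered through the wheat bran mean, which a single high compartment can carry. Without compartment 9, the runs 1683 to 1687, 3869 to 3872 and 4335 to 4338 had no member. Nor had 5229 to 5232, 6006 to 6009 and 11025 to 11028. A change toward the compartment that carried a gene is therefore not independent of its choice. The differences were tested with the plate as a block in edgeR's quasi-likelihood test over all genes with Benjamini-Hochberg adjustment. Of the 73 members, 70 passed the filter on low counts, and NRRL3_38, NRRL3_40 and NRRL3_7442 did not. At an adjusted p under 0.05, 27 of the 70 differed among compartments 7, 8 and 9, where 32.4% of all 10990 genes tested did. From compartment 7 to 9, 31 of 70 members changed and 39.4% of all genes did. Of these members 19 rose, against 18.3% of all genes, and 12 fell, against 21.2%. From compartment 8 to 9, 19 of 70 changed against a background of 23.8%, with 12 members rising against 10.8% and 7 falling against 12.9%. As shares of the 70 members, the calls came to 38.6% for any difference, 44.3% for 7 against 9 and 27.1% for 8 against 9, near the background in each case, so they are no result about the members as a set. What the calls describe is the order of compartments within single runs.

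From compartment 7 to 8, edgeR called 0 members and 0 of 10990 genes, with 5 members and 620 genes at an unadjusted p under 0.05. DESeq2 called 10 genes, 5 of which were members, all in the run 37 to 41. The calls into compartment 9 moved with the scaling. With scaling by library size alone, the median log2 change over all genes moved from -0.06 to -0.84 between compartments 7 and 9 and from -0.02 to -0.61 between 8 and 9. Under that scaling 10 members rose and 24 fell from 7 to 9, 14.3% and 34.3% of the 70, against 5.81% and 38.7% of all genes. From 8 to 9, 8 rose and 17 fell, 11.4% and 24.3%, against 2.75% and 23.9% of all genes. Leaving out plate C lowered the calls over the whole table. Members with any difference went from 27 to 8 (11.4%, against 3.47% of all genes), those called between 7 and 9 from 31 to 10 (14.3% against 8.7%) and those called between 8 and 9 from 19 to 0 (against 1.41%). Leaving out plate A lowered the last count to 10 (14.1% against 10.1%), and leaving out the library A8 alone lowered it to 9 (12.7% against 9.01%). Of the 31 calls from 7 to 9, 7 held with each plate left out in turn, those of NRRL3_149, NRRL3_1684, NRRL3_1685, NRRL3_1686, NRRL3_1687, NRRL3_6009 and NRRL3_11672. Of the 19 calls from 8 to 9, 0 did. Each of the 7 changes that held went toward a compartment in which the gene met the criterion, from or into one in which it did not. NRRL3_1684 to NRRL3_1687 and NRRL3_11672 met it in compartment 9 only. NRRL3_6009 missed it in compartment 7 and NRRL3_149 in compartment 9. That these calls held is therefore not independent of the choice.

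The run 37 to 41 was raised in 1 library of 27. In A8, NRRL3_41 stood at 31760.3 scaled counts, and in the other 26 libraries it lay between 54.0 and 247. NRRL3_37 stood at 6698 in A8 and at 0 to 21.8 in the others. NRRL3_40 stood at 3707 against 0 to 10.4. All 5 members showed the same single high library, NRRL3_39 with 1196 in A8 and at most 22.1 elsewhere, and NRRL3_38 with 444 and at most 7.29. The excess over the next highest library ranged from 54.0-fold to 356-fold. In counts as deposited, the 5 genes together had 42752 in A8, 0.262% of that library, and 3593 in the other 26 libraries together. The same compartment on the other plates, B8 and C8, held 151 and 161 scaled counts of NRRL3_41, so the replicates of compartment 8 did not share the high level.

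The identifiers beside this run were examined in the same library. NRRL3_36, the identifier before it, had 62.5 scaled counts in A8 and at most 27.1 elsewhere. NRRL3_42, the one after, had 646 in A8 and lay between 245 and 1675 in the others, so A8 did not stand apart. NRRL3_43, named after its values were seen, had 6909 in A8 and at most 20.9 elsewhere, and NRRL3_315, likewise, had 973 and at most 27.9. Over the whole table, 9 genes had a library at 50 or more that exceeded all others at least 10-fold, 7 of them in A8 and 2 in A9 (NRRL3_59 and NRRL3_3009), and 5 of the 7 were the members of this run.

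Without A8, the wheat bran means of the 5 members were 1.23 to 2.74 times the glucose means and 0.930 to 2.53 times the sugar beet pulp means, and none of them remained a member. The 3 that could be tested were called lower in compartment 9 than in 8 (log2 fold changes -7.30, -4.92 and -5.18 for NRRL3_37, NRRL3_39 and NRRL3_41). Without A8 those changes were 0.19, 0.07 and 0.37, and 0 of the 3 was called. From compartment 7 to 8 edgeR gave log2 fold changes of 6.66, 4.67 and 6.15 with adjusted p-values of 0.604, 0.809 and 0.420, whereas DESeq2, which fits all 5, gave 4.82 to 7.37 with adjusted p-values from 1.1e-05 to 0.0215.

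**Figure D2:**
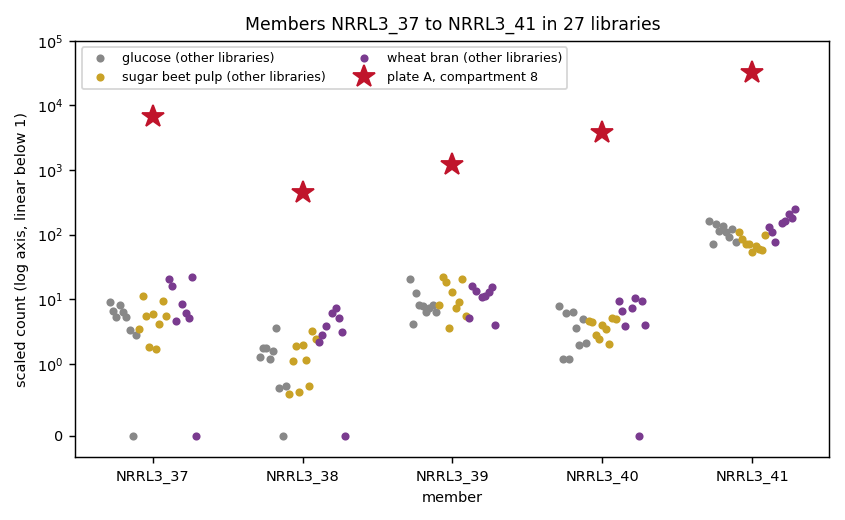
Scaled counts of NRRL3_37 to NRRL3_41 in the 27 libraries, on a log axis that is linear below 1. Stars mark A8 and small points the other 26 libraries by substrate. For each gene the star lies at least 54.0-fold above the highest point.

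The run 1683 to 1687 was low in compartments 7 and 8 and high in compartment 9 on every plate. All 5 members met the criterion in compartment 9 only, so their rises into it are not independent of the choice. NRRL3_1685, its member with the highest count, stood in plates A, B and C at 1518, 2386 and 1852 scaled counts in compartment 7, at 1894, 3716 and 3629 in compartment 8 and at 8762, 10288 and 10228 in compartment 9. NRRL3_1686 stood at 87.6, 209 and 154 in compartment 7, 131, 380.3 and 414 in 8 and 1149, 1231 and 1994 in 9. The 3 compartment 9 libraries lay above all 6 others of the section for both genes. All 5 members rose from compartment 7 to 9, by log2 fold changes from 2.29 to 3.31, the largest being 3.31 (SE 0.59, adjusted p = 2.0e-04) for NRRL3_1684 and 3.24 (SE 0.49, adjusted p = 4.8e-05) for NRRL3_1686 (edgeR). From 8 to 9 all 5 rose as well, by 1.61 to 2.30, with 2.30 (SE 0.56, adjusted p = 0.00577) for NRRL3_1684. That last change was 2.01 without A8, 1.66 without plate A and 2.61 without plate C, and it was called in none of these (adjusted p = 0.0501, 0.107 and 0.0935). In the test among the 3 compartments, NRRL3_1686 and NRRL3_1687 had the lowest p of all members that met the naming rule (adjusted p = 6.2e-05 and 9.8e-05).

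This run also differed between the substrates off bran. In glucose, NRRL3_1686 was between 79.5 and 324, with a median of 175, and in sugar beet pulp between 20.7 and 155, with a median of 53.0. On glucose NRRL3_1687 was between 45.1 and 180.0, with a median of 102, and on sugar beet pulp it was between 17.9 and 87.1, with a median of 28.3, so the ranges overlapped for both genes although the lowest levels were those of compartments 5 and 6. With the counts of each substrate added up per plate, NRRL3_1684, NRRL3_1685, NRRL3_1686 and NRRL3_1687 were lower on sugar beet pulp than on glucose, with log2 fold changes from -1.06 to -1.47 (6.49% of all genes were called in this comparison). NRRL3_1687 fell by 1.35 (SE 0.23, adjusted p = 0.0112), and NRRL3_1683 was at -0.77 with an adjusted p of 0.145. Without plate C, NRRL3_1687 was at -1.57 and not called (adjusted p = 0.0847).

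Members of the run 7442 to 7452 did not follow one course. NRRL3_7447, its most counted member, stood in plates A, B and C at 7614, 2782 and 6444 in compartment 7, 5219, 2342 and 3970.3 in 8 and 1691, 726 and 797 in 9, falling on every plate. NRRL3_7444 stood at 216, 65.1 and 134 in compartment 7, 152, 45.4 and 70.8 in 8 and 51.4, 18.7 and 31.9 in 9. Both were highest on plate A and lowest on plate B in compartments 7 and 8. NRRL3_7451 had another order of plates, with 506, 756 and 662 in compartment 7, 464, 751 and 1217 in 8 and 100.2, 265 and 411 in 9, and was lowest on plate A in every compartment. Of the 10 members tested, 4 fell from compartment 7 to 9, NRRL3_7447 by 2.50 (SE 0.46, adjusted p = 2.9e-04), NRRL3_7444 by 2.06, NRRL3_7446 by 1.84 and NRRL3_7451 by 1.44 on the log2 scale. None of the 10 rose. From 8 to 9, NRRL3_7447 and NRRL3_7451 fell, by 1.92 and 1.71. Without plate C the changes from 7 to 9 of NRRL3_7444, NRRL3_7446 and NRRL3_7447 were -1.93, -1.95 and -2.08 and were not called, with adjusted p-values of 0.0827, 0.111 and 0.0586.

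Several members of this long run had few counts. NRRL3_7442, NRRL3_7448, NRRL3_7449 and NRRL3_7452 averaged 8.07 ± 4.27, 10.6 ± 2.18, 14.7 ± 5.15 and 17.5 ± 6.68 scaled counts over wheat bran (SD over plates, n = 3). NRRL3_7450 averaged 21.1 ± 8.14, and NRRL3_7443, NRRL3_7445 and NRRL3_7446 averaged 89.8 ± 26.0, 36.9 ± 21.5 and 34.1 ± 15.3. Of these, NRRL3_7443 was similar in the first and the last compartment of the section, with 129, 83.1 and 44.7 in compartment 7 and 126, 77.9 and 71.8 in compartment 9. NRRL3_7442 had 2.46 times its glucose mean through 2 libraries, B7 with 15.1 and C9 with 27.9, while the other 7 wheat bran libraries held 1.57 to 9.35.

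In the run 9967 to 9973 the members NRRL3_9968, NRRL3_9969, NRRL3_9970 and NRRL3_9972 shared their order over plates, apart from NRRL3_9970 in compartment 9, and NRRL3_9973 did not. NRRL3_9968 stood in plates A, B and C at 7538, 1806 and 4505 in compartment 7, 6113, 907 and 2487 in 8 and 3161, 262 and 311 in 9. Off bran it was between 36.7 and 587. Plate A was highest and plate B lowest in all 3 compartments, and B9 and C9 lay within the range off bran. NRRL3_9972 stood at 995, 320.0 and 669 in compartment 7, 1017, 183 and 344 in 8 and 671, 281 and 331 in 9, again highest on plate A and lowest on plate B.

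NRRL3_9973 was the member of that run with the highest count, and 55.5% of its wheat bran signal came from 1 library. It stood at 21736 in A9 and between 1781 and 2744 in the other 8 wheat bran libraries, while A1 on glucose held 3629. From compartment 7 to 9, NRRL3_9969 and NRRL3_9970 fell, by 1.20 and 1.98 on the log2 scale, and NRRL3_9973 rose by 1.79 (SE 0.68, adjusted p = 0.0407). NRRL3_9973 met the criterion in compartment 9 only, so that rise is not independent of the choice. Without plate A that rise was 0.33 with an adjusted p of 0.548, and without plate C it was 2.43 with 0.0952. With library size scaling it was 0.96 with 0.229. Without plate C, NRRL3_9969 and NRRL3_9970 were at -0.83 and -1.36 and not called (adjusted p = 0.450 and 0.276), nor were they without plate B (0.0936 and 0.0526).

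The run 11672 to 11678 split at its first members. NRRL3_11672 rose into compartment 9, with 75.8, 68.0 and 64.3 in plates A, B and C in compartment 7, 93.2, 88.3 and 126 in 8 and 918, 234 and 335 in 9. NRRL3_11673 took the opposite course, with 221, 79.3 and 375 in compartment 7, 148, 60.1 and 91.6 in 8 and 51.4, 34.3 and 19.9 in 9. On each plate NRRL3_11672 was highest and NRRL3_11673 lowest in compartment 9. NRRL3_11672 met the criterion in compartment 9 only, so its rises into it are not independent of the choice. The log2 fold change from 7 to 9 was 2.85 (SE 0.57, adjusted p = 5.4e-04) for NRRL3_11672 and -2.66 (SE 0.61, adjusted p = 0.00161) for NRRL3_11673, and the latter call was lost without plate C (-1.82, adjusted p = 0.126). From 8 to 9, NRRL3_11672 rose by 2.34 (SE 0.56, adjusted p = 0.00500), while without plate A it was at 1.38 and without plate C at 2.77, not called in either (0.0862 and 0.0773). NRRL3_11672 was also lower on sugar beet pulp than on glucose, at -1.68 (SE 0.39, adjusted p = 0.0351), while without plate B it was at -1.48 and without plate C at -1.77, not called in either (adjusted p = 0.101 and 0.172).

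Members NRRL3_11674 to NRRL3_11678 differed by plate. NRRL3_11677, the member with the highest count, stood in plates A, B and C at 3137, 1310.4 and 7487 in compartment 7, 7274, 1213 and 1897 in 8 and 24542, 555 and 706 in 9. On plate A it was highest in compartment 9, on plates B and C in compartment 7. NRRL3_11675 stood at 189.8, 87.8 and 449 in compartment 7, 311, 41.7 and 96.8 in 8 and 427, 12.5 and 19.9 in 9, with C above A above B in compartment 7 and A above C above B in 8 and 9, as in NRRL3_11677. Between compartments 7 and 9 none of the 5 was called over 3 plates, with log2 fold changes from -1.99 to 0.04. Without plate A all 5 were called lower in compartment 9, at -2.82 to -4.63. The plates also differed off bran, where NRRL3_11677 reached 4180 in A1, 1747 in B5, 1604 in B6 and 1166 in B3 and lay at 692 or less in the remaining 14 libraries. A1, B5 and B6 were also the libraries where NRRL3_11674, NRRL3_11675, NRRL3_11676 and NRRL3_11678 were highest off bran.

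**Figure D3:**
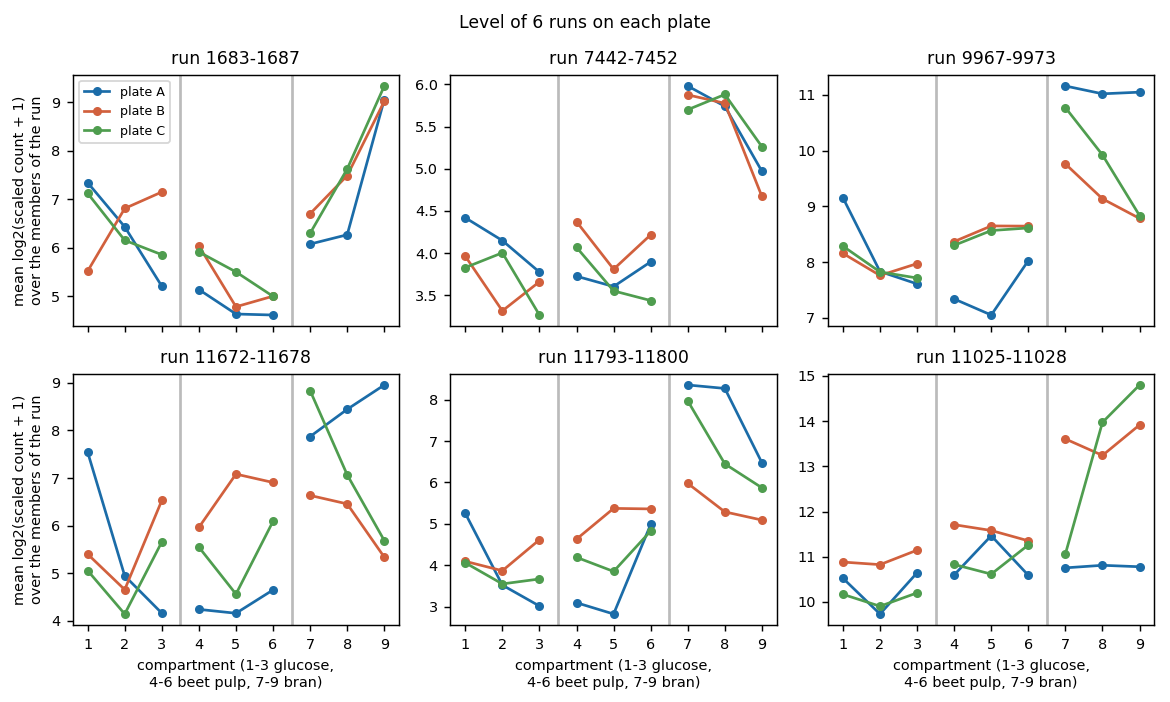
Mean log2(scaled count + 1) over the members of 6 runs, by compartment, with 1 line per plate within each substrate. The run 1683 to 1687 climbs to compartment 9 on all 3 plates, 11025 to 11028 is lowest on plate A over wheat bran, and 9967 to 9973, 11672 to 11678 and 11793 to 11800 are lowest on plate B in compartments 7 and 8.

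Several runs stood at different levels on the 3 plates. Taken as the ratio of the highest to the lowest plate mean over wheat bran, the spread had a median of 2.79 over the 73 members and of 1.52 over the 11181 genes with a wheat bran mean of 5 or more. Genes that qualified through 1 or 2 plates are bound to have a wide ratio. Plate B was the lowest plate for 7 of 7 members of the run 11672 to 11678, 5 of 5 of 11793 to 11800, 4 of 4 of 4335 to 4338 and 4 of 5 of 9967 to 9973. Plate C was lowest for 5 of 5 members of 8891 to 8897, and plate A for 4 of 4 of 11025 to 11028. With 3 colonies, a plate cannot be told apart from what else differed between its libraries.

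The run 11025 to 11028, described after its values were seen, met the criterion on plates B and C and not on plate A. NRRL3_11025 stood in plates A, B and C at 860.1, 15895 and 907 in compartment 7, 1409, 11297 and 18859 in 8 and 195, 14348 and 20890.4 in 9. On plate B it was high in all 3 compartments, on plate C in 8 and 9 but not in 7, and on plate A in none. NRRL3_11026 stood at 364, 4342 and 468 in compartment 7, 326, 2856 and 6105 in 8 and 342, 7501 and 20743 in 9 and had the same pattern. NRRL3_11028, with the highest wheat bran mean of all members (42698 ± 22178, SD over plates, n = 3), stood at 15925, 47307 and 24656 in compartment 7, 14215, 40073 and 70621 in 8 and 25812, 53917 and 91759.9 in 9, and off bran between 10621 and 23724. On plate A, NRRL3_11027 stood at 1778, 1590.2 and 5487 in compartments 7, 8 and 9, and off bran it lay between 890.4 and 3852. A9 was thus above every library off bran for NRRL3_11027 and NRRL3_11028. The criterion, which averages over the compartments, was met on plate A by 0 of the 4 members and on plates B and C by 4 of 4. Between compartments 7 and 9, NRRL3_11026 and NRRL3_11027 rose, by 2.42 (SE 0.93, adjusted p = 0.0426) and 1.52 (SE 0.47, adjusted p = 0.0130). Without plate C they were at 0.64 and 0.90 and not called (adjusted p = 0.687 and 0.325), and with library size scaling at 1.52 and 0.65 and not called (0.188 and 0.192). On plate A, NRRL3_11025 was at 2894 in sugar beet pulp compartment 5, above its 3 wheat bran libraries of that plate.

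Over wheat bran, 3 members of the run 11793 to 11800 moved closely together, and NRRL3_11799 and NRRL3_11800 followed them in part or not. NRRL3_11798 stood in plates A, B and C at 2318, 346 and 1604 in compartment 7, 2427, 200.0 and 540.3 in 8 and 686, 99.8 and 167 in 9. NRRL3_11797 stood at 455, 40.6 and 229 in compartment 7, 504, 17.2 and 40.6 in 8 and 74.5, 6.24 and 12.0 in 9, and with NRRL3_11794 shared the order of plates, A above C above B, in every compartment. From 7 to 9, NRRL3_11797 and NRRL3_11798 fell, by 3.19 (SE 1.13, adjusted p = 0.0288) and 2.36 (SE 0.91, adjusted p = 0.0437) on the log2 scale. Without plate C the change of NRRL3_11797 was -2.46 with an adjusted p of 0.313, and that of NRRL3_11798 was -1.73 with 0.419. NRRL3_11799 kept the order A above C above B in compartments 7 and 8 but not in 9, where A9 held 2.57 scaled counts. NRRL3_11800, at the end of the run, departed from that order in compartments 8 and 9, where plate C was highest. It had 46.8 in compartment 8 against 14.3 on plate A, the lowest there, and 41.1, 40.5 and 51.8 in plates A, B and C in compartment 9.

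How far members of a run moved together was measured across the 9 wheat bran libraries, after subtracting each compartment's mean from log2(scaled count + 1), so that the order of the compartments played no part. The 165 pairs of members in the same run had a median Pearson r of 0.557, the 2463 pairs in different runs -0.03, and the 10667 pairs of neighbouring identifiers among all genes 0.12. Without the run 37 to 41 the median was 0.523. Where both members averaged 20 scaled counts or more over wheat bran, the 3 medians were 0.740, -0.01 and 0.13. These values are descriptions, since the 9 points come from 3 colonies and share library depth and scaling, and genes that qualified through the same library are bound to vary together.

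The 18 glucose and sugar beet pulp libraries entered the rule through their substrate means and, in the exclusion, through their largest compartment mean. There the median r was 0.392 for pairs in the same run, 0.271 for pairs in different runs and 0.12 for all neighbouring identifiers, so members of different runs also varied together off bran. A1 was the highest of these 18 libraries for 32 of the 73 members (43.8%), for 49.7% of the other genes that met the criterion and for 17.2% of all genes. The run 1683 to 1687 co-varied on both sides, with a median r of 0.805 on bran and 0.794 off it and no pair off bran below 0.722.

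Runs differed in this measure. On bran the medians were 0.933 for 11025 to 11028, 0.922 for 9967 to 9973, 0.915 for 37 to 41 and 0.849 for 11672 to 11678. Within the last, the 10 pairs among NRRL3_11674 to NRRL3_11678 had r from 0.938 to 0.993 on bran and from 0.845 to 0.965 off it, while NRRL3_11672 and NRRL3_11673 had 0.283 with each other. Within 11793 to 11800, the 3 pairs of NRRL3_11794, NRRL3_11797 and NRRL3_11798 had 0.970 to 0.991 on bran and 0.831 to 0.877 off it. With these 3, NRRL3_11799 had 0.349 to 0.429 on bran and 0.305 to 0.471 off it. NRRL3_11800 had -0.11 to -0.26 with them on bran but 0.551 to 0.757 off it. The run 7442 to 7452 had a median of -0.04 over 55 pairs, with 9 pairs over 0.5 and 14 under -0.5. NRRL3_7444 had 0.932 with NRRL3_7447 and -0.92 with NRRL3_7449, the highest and the lowest of the 55. Off bran these pairs had 0.540 and 0.490. NRRL3_7449 had only 4 to 21 deposited counts in each wheat bran library. The runs 3869 to 3872, 5229 to 5232 and 6006 to 6009 were also loose, with medians of -0.04, 0.183 and 0.272.

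**Figure D4:**
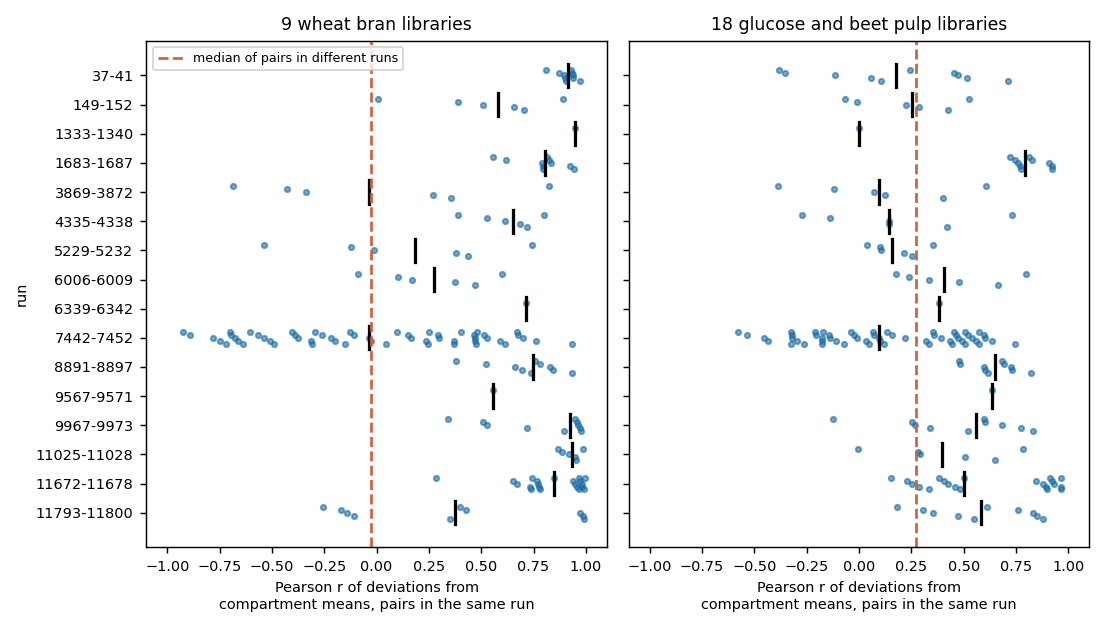
Pearson r between members of the same run, 1 point per pair, across the 9 wheat bran libraries (left) and the 18 glucose and sugar beet pulp libraries (right), after subtracting compartment means. Black bars are medians per run and the dashed line is the median of pairs in different runs. On bran most runs lie to the right of the dashed line, and 7442 to 7452 is spread over both sides.

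By mean scaled count, 23 members peaked in compartment 7, 17 in 8 and 33 in 9. Among the 1360 genes that met the criterion, members included, the shares were 16.5%, 11.2% and 72.3%. Over all 11181 genes that reached the minimum wheat bran mean they were 36.2%, 18.8% and 45.0%. The members' share in compartment 9 was thus near that of all genes. With library size scaling the member counts became 35, 16 and 22, so the compartment with most member peaks depended on the scaling. Under that scaling, compartment 9 held the peak of 56.3% of the genes that met the criterion and 19.8% of all genes. Of 52 pairs of members with consecutive numbers, 35 peaked in the same compartment (67.3%), and of the 48 outside the run 37 to 41, whose members peak through A8, 31 did (64.6%). Among 206 pairs of consecutive genes that met the criterion and were not members the share was 57.8%. With library size scaling the 3 shares were 65.4%, 62.5% and 55.3%. The wheat bran levels behind these peaks also chose the genes, so the shares are descriptions. In 7 runs all members peaked in the same compartment, namely compartment 8 in 37 to 41 and 6339 to 6342 and compartment 9 in 1333 to 1340, 1683 to 1687, 3869 to 3872, 6006 to 6009 and 11025 to 11028.

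Among the runs with fewer members, 6006 to 6009 resembled 1683 to 1687. NRRL3_6009 stood in plates A, B and C at 1116, 1223 and 951 in compartment 7, 984, 1947 and 2356 in 8 and 5904, 5867 and 7708 in 9, with compartment 9 highest on every plate. All 4 members rose from 7 to 9, by log2 fold changes from 1.27 to 2.48, and NRRL3_6008 and NRRL3_6009 also rose from 8 to 9. With library size scaling, NRRL3_6006, NRRL3_6007 and NRRL3_6008 were at 0.88, 0.42 and 0.74 from 7 to 9, with adjusted p-values of 0.153, 0.461 and 0.0767, and without plate C they were at 1.29, 0.97 and 1.19 with 0.242, 0.366 and 0.161. Both members of 1333 to 1340 rose from 7 to 9 and from 8 to 9, NRRL3_1339 by 2.49 (SE 0.60, adjusted p = 0.00254) from 7 to 9. In 3869 to 3872, NRRL3_3870 and NRRL3_3872 rose from 7 to 9, by 2.50 and 1.70, and in 5229 to 5232 NRRL3_5231 rose by 1.28. NRRL3_6006, NRRL3_6008, NRRL3_3870 and NRRL3_5231 met the criterion in compartment 9 only, so their rises into it are not independent of the choice. With library size scaling NRRL3_3872 and NRRL3_5231 were at 0.84 and 0.48 and not called (adjusted p = 0.107 and 0.382). Without plate C, NRRL3_1339, NRRL3_3870 and NRRL3_3872 were at 1.64, 2.23 and 1.36 and not called (adjusted p = 0.187, 0.0658 and 0.167). NRRL3_5231 was at 0.63 from plates B and C and at 1.29 from plates A and C, and not called in either (adjusted p = 0.263 and 0.0754).

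The remaining runs had members with other courses. In 149 to 152, NRRL3_149 stood in plates A, B and C at 436, 1188 and 431 in compartment 7, 273, 501 and 1094 in 8 and 74.5, 206 and 207 in 9, lowest in compartment 9 on each plate. It fell by 1.98 (SE 0.43, adjusted p = 0.00272) from 8 to 9 on the log2 scale, and was at -1.52 without plate C, not called (0.111). NRRL3_8893 stood at 270.0, 156 and 21.9 in compartment 7, 171, 204 and 77.0 in 8 and 48.8, 31.2 and 27.9 in 9, and at 12.9 or less off bran, so its 9 wheat bran libraries were all above the 18 others. It fell by 2.06 (SE 0.55, adjusted p = 0.0102) from 8 to 9, and was at -1.73 without plate B and -2.19 without plate C, not called in either (0.0972 and 0.0848). The other 4 members of 8891 to 8897 had log2 fold changes of 0.28, 0.55, -0.10 and 0.48 from 7 to 9 and were not called. In 9567 to 9571 the 2 remaining members went opposite ways from 7 to 9, NRRL3_9567 with -2.10 and NRRL3_9571 with 1.52, both called over 3 plates. Without plate C they were at -2.42 and 1.57 and without plate A at -1.62 and 1.19, not called in either (adjusted p = 0.0847 and 0.197, then 0.131 and 0.112), and NRRL3_9571 was at 0.69 with library size scaling (adjusted p = 0.170). In 4335 to 4338 and 6339 to 6342, 0 of 4 and 0 of 2 members were called in any of these comparisons. NRRL3_4337 stood at 351, 177 and 346 in compartment 7, 363, 209 and 301 in 8 and 1175, 203 and 463 in 9, and was lowest on plate B in compartments 7, 8 and 9.

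**Figure D5:**
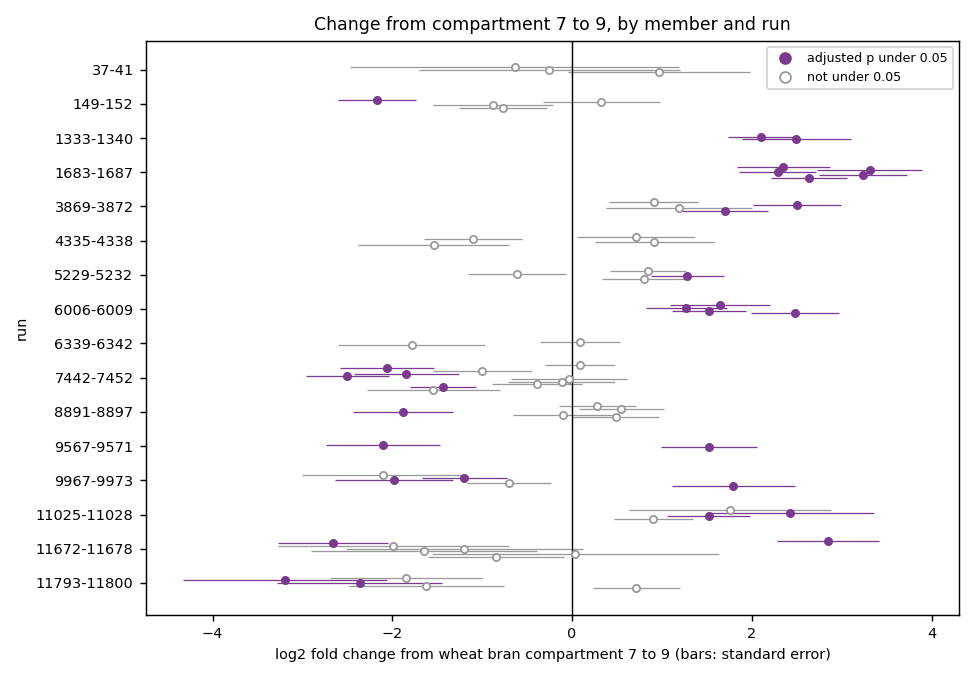
Log2 fold change from wheat bran compartment 7 to 9 for the 70 members tested, 1 point per member with its standard error, by run. Filled points had an adjusted p under 0.05 in edgeR. Filled points lie to the right of 0 for all 5 members of 1683 to 1687 and all 4 of 6006 to 6009, and to the left for 4 members of 7442 to 7452.

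Sugar beet pulp against glucose was the comparison of substrates in which the rule set no direction, although it used the means of both. Over 9 sums of 3 compartments per plate and substrate, edgeR called 7 of 73 members, where 6.49% of 11563 genes were called. Of these members 1 was higher on sugar beet pulp, against 2.3% of all genes, and 6 were lower, against 4.19%. The share of members called, 9.59%, was near the background. On glucose NRRL3_149 was between 21.9 and 68.6, with a median of 49.2, and on sugar beet pulp it was between 40.8 and 196, with a median of 96.3. Its log2 fold change was 1.29 (SE 0.26, adjusted p = 0.0207). Of its 9 sugar beet pulp libraries 1 lay within the range of the glucose libraries, and without plate C the change was 1.46 and not called (adjusted p = 0.137). The 6 lower members were 4 of the run 1683 to 1687, NRRL3_11672 and NRRL3_6009, the last at -0.89 (SE 0.20, adjusted p = 0.0345). With library size scaling, which moved the median change of all genes from 0.04 to 0.43, 4 members were higher and 4 lower (5.48% each), against 16.2% and 2.17% of all genes. Without plate B 3 members were called (4.11%, against 4.1% of all genes), and without plate C 0 (against 0.718%).

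Within the other sections no member was called by edgeR over the 3 plates. The largest compartment mean off bran entered the exclusion, so differences among these compartments are not wholly independent of the choice. Among glucose compartments 1, 2 and 3, edgeR called 0 of 70 members and 0.118% of all genes, with 4 members at an unadjusted p under 0.05, and DESeq2 called 0. Among sugar beet pulp compartments 4, 5 and 6 it called 0 of 70 against 0.874%, with 5 members at an unadjusted p under 0.05, and DESeq2 called 1 (1.43%, against 2.06% of all genes). A fit of the 9 sugar beet pulp libraries alone called 7 of the 59 members it could test (11.9%), where 10.6% of all genes were called. A test that misses its threshold does not show that levels were equal.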

How the data were processed

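RNA sequencing libraries were made with a low-input full-length cDNA kit and read on an Ion Proton, per the labels' protocols. The deposited table holds raw counts, whole numbers of reads per gene model (11846) and library (27). The submitters' processing notes name HTSeq and DESeq2 with no version or role. The aligner, build and annotation were not given in the sources used here. How the counting treated strand is unstated too, so reads of overlapping neighbours cannot be told apart. No molecular identifiers are named.

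From the deposited counts, median-of-ratios scaled counts were computed for levels. Tests used edgeR 4.0.16 in R 4.3.3 (quasi-likelihood F-test, two-sided, TMM, filterByExpr, Benjamini-Hochberg over all genes, threshold 0.05) with the plate as a block. Compartments were compared in 1 fit of 27 libraries (10990 genes, 16 residual degrees of freedom), and sugar beet pulp with glucose over 9 sums per plate and substrate (11563 genes, 4 residual degrees of freedom). DESeq2 1.42.0 was an alternative. Standard errors were taken as the size of the log2 change over the root of its F. The tests were also run on simulated counts with known changes, drawn without differences between plates. That run is no support for calls where the plates differed.

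The plate number pairs libraries because, per the labels, a colony covers all 9 compartments of its plate. In a check across genes, deviations from compartment means had an average r of 0.122 for the 108 same-plate pairs, 59 of them over 0.1, and of -0.06 for the 216 pairs from different plates.

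The members and lists were chosen with earlier results of these data known. Runs were formed before the uniformly high genes were left out, so those genes do not break a run. The 5 runs with most members were described gene by gene (ties by wheat bran sum), and per comparison at most 2 members that rose and 2 that fell were named, with an adjusted p under 0.05, a mean of 50 or more in the higher group and the same direction on all 3 plates. Other members were named after their values were seen.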

Additional observations from a re-analysis of the deposited data

Results flagged for a closer look

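The mean log2(scaled count + 1) over the members of a run was checked in each of 48 groups of 9 libraries (16 runs by 3 substrates) for a library whose gap to its nearest neighbour took up an unusually large share of the group's range. Chance alone gives about 1 such group in 20, and 4 of the 48 were found. In the wheat bran libraries of the run 37 to 41, A8 stood at 11.71 and the next library at 4.30, a gap of 0.806 of the range. In the wheat bran libraries of 5229 to 5232, A9 stood at 7.91 against 6.99, a share of 0.565. On glucose, A1 was the highest library in both remaining cases, at 9.15 against 8.29 for 9967 to 9973 (0.562 of the range) and at 5.09 against 3.76 for 4335 to 4338 (0.51). All 4 flags fell on libraries of plate A, and both of those on glucose on the same library, A1.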

How the results depend on the processing

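The membership of the runs depended on scaling and on the thresholds. Against 73 members in 16 runs, library size scaling gave 26 members, a 3-fold criterion 23, runs of 5 or more 47, runs of 3 or more 165, and wheat bran without compartment 9 gave 43. Of the 26 members under library size scaling, 21 were among the 73. Under library size scaling, and likewise under the 3-fold criterion, 7 of the 16 runs kept a member. Under both, none was left in 1683 to 1687, 3869 to 3872, 4335 to 4338, 5229 to 5232 or 6006 to 6009. Nor was any left in 7442 to 7452, 9967 to 9973, 11025 to 11028 or 11672 to 11678. TMM scaling gave 63 members, 62 of them among the 73, and leaving out each plate in turn gave 54 to 90. Without A8, an alternative chosen after seeing the data, 69 genes were members, 60 of them among the 73. The cause of these shifts was not tested.

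Leaving out each plate in turn, the members called were 8 to 28 among compartments 7, 8 and 9, 10 to 34 from 7 to 9, 0 to 22 from 8 to 9, 0 to 5 between sugar beet pulp and glucose and 0 to 2 among the glucose compartments. Without A8 the count from 8 to 9 was 9 in place of 19. DESeq2 called 5 members from 7 to 8 and 1 among the sugar beet pulp compartments, where edgeR called 0, and the sugar beet pulp libraries fitted alone gave 7. Without the replicate block, members called were 25 in place of 27 among the wheat bran compartments, 30 in place of 31 from 7 to 9, and 19 and 7 as before from 8 to 9 and between sugar beet pulp and glucose, so pairing by plate moved no count by over 1.5 times. For the members named by the rule on call, level and direction, log2 fold changes kept direction and call in 82 alternatives. They lost the call in 14 and reversed in 0. These members were chosen for a call and the same direction on every plate, so a reversal was unlikely from the start. The other members named in the text are not in these counts, and several of them lost their calls, as given with their values.

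With 3 colonies, calls from 2 plates rest on few residual degrees of freedom, equally few whichever plate is left out. From compartment 7 to 9, 34.9% of all genes were called without plate A, 35.3% without plate B and 8.7% without plate C. The cause of that difference was not tested. The members with the lowest counts, 10 of them under 20 scaled counts on bran, carry the largest counting error.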
